A study of Mus musculus with 30 samples.

Results

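The 42 genes described here encode proteins of DNA replication and cell division: 16 act in S phase, 25 in mitosis, and 1 is the G1 cyclin Ccnd1. They were chosen by name from the array platform's gene symbols, with earlier results of these data known. Where a gene has several probe sets the brightest one on average stands for it. Of the 42, 40 were on the array (15 S phase genes, 24 mitosis genes and Ccnd1) among 12393 genes measured, while Gins2 and Ccnb1 were not analysed here. All 40 were kept with no filter on low values. RNA of 30 mouse retinas, 1 from each pup, was measured on 30 expression arrays in 10 groups of 3. The model is oxygen-induced retinopathy (OIR): from postnatal day 7 (P7) pups are kept in 75% oxygen, for 5 days, which closes retinal capillaries, and are then returned to room air, where the poorly perfused retina grows abnormal vessels.

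Of the 10 groups, 8 had OIR and an injection into the vitreous. At P12, on the return to room air, the eyes received endothelial colony-forming cells (ECFC, 100000 cells), CD34+ progenitor cells (10000 cells), both together (110000 cells, the combination), or saline. At P5, before the oxygen, other pups received the same 3 cell preparations or saline. The OIR group had oxygen and no injection, and the normoxia group stayed in room air with no injection. Every sample label gives P17 as the stage, whereas the series design text pairs injection at P5 with collection at P12, so day of injection and day of collection cannot be told apart between the P5 groups and the others. The labels used here name neither mouse strain nor sex, nor the source of the cells. No label gives separate litters. The p-values rest on the spread between pups within groups, pooled over all 10 groups, and not on that of the 2 groups compared alone.

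A dividing cell copies its DNA in S phase and separates the copies in mitosis. Licensing factors such as Cdc6 load the Mcm2 to Mcm7 helicase onto DNA, ribonucleotide reductase (Rrm1 and Rrm2) and the thymidylate enzymes (Tyms and Tk1) make the building blocks, and Pcna clamps the polymerase to its template. Cyclin B with Cdk1 then starts mitosis, spindle motors and kinetochore proteins sort the chromosomes, and the midzone and contractile ring proteins part the daughter cells. In the mouse retina neurogenesis ends early after birth, from the centre outward, and vessel cells divide as the vascular bed spreads.

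The deposited values are log2 intensities. Array medians lay between 8.16 and 8.49, and the 10 rod markers averaged 12.98 to 13.34 on every array, among the high readings of the arrays. Markers of the lens, a neighbouring tissue, stood apart on arrays of the P5 groups: their mean ranged from 7.43 to 13.99 in P5 CD34+ retinas and from 10.65 to 13.67 in P5 saline retinas, against 5.94 to 7.05 in OIR and 6.16 to 8.81 in normoxia. The spiked-in hybridisation controls averaged 13.23 to 13.65 on the 12 P12 arrays, cells and saline together, and 11.86 to 12.96 on the 18 others, so the P12 arrays stand apart in this measure. Xist, which is silent in 1 sex, read 4.48 to 5.70 on its 16 low arrays. The means of Tyms, Cdc6, Bub1, Cenpa and Anln lay at or under that top reading, and so did the normoxia means of 9 members, among them Rrm2, Top2a, Birc5 and Tk1, so differences from normoxia are not exact sizes for these. Xist read 12.41, 12.28 and 12.48 in the P5 combination retinas and 5.40, 5.03 and 5.51 in those of the P12 combination. In P5 saline it read 5.70, 12.14 and 4.97. Sex and injection day thus cannot be told apart between the 2 combination groups, and the part of sex was not tested.

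A set of replication and mitosis genes was higher in OIR retinas than in normoxia retinas. Of the 40 members 14 rose, 1 fell and 25 did not pass (limma over all arrays, two-sided, Benjamini-Hochberg over all genes, adjusted p under 0.05). That is 15 of 40, against 4.56% of all 12393 genes, and the rises compare with 3.59% of all genes. Members were chosen with earlier results of these data known, so this share is no independent test. Ribonucleotide reductase subunit Rrm2, the DNA-untangling enzyme Top2a, the helicase subunit Mcm6 and the mitotic kinase Cdk1 were among those that rose; no fold is given for Rrm2 and Top2a, whose normoxia means lay at or under the reading of an absent RNA. Each array holds the RNA of a whole retina, so more dividing cells and more of these RNAs in each cell cannot be told apart.

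Rrm2, the regulated subunit of ribonucleotide reductase, read 8.03, 7.86 and 7.88 in OIR, against 5.77, 5.45 and 5.78 in normoxia (log2 difference 2.25 ± 0.30, adjusted p = 4.81e-05). Top2a read 6.99, 7.22 and 7.44 in OIR, against 5.03, 4.65 and 5.21 in normoxia (2.25 ± 0.29, adjusted p = 3.07e-05). For both genes the lowest OIR retina lay well above the highest normoxia retina. Mcm6, a subunit of the replicative helicase, read 10.14, 9.84 and 10.12 in OIR, against 8.999, 8.69 and 9.22 in normoxia (1.07 ± 0.14, adjusted p = 4.75e-05). Cdk1, the kinase that starts mitosis, read 7.61, 7.56 and 7.92 in OIR, against 6.21, 6.44 and 6.51 in normoxia (1.31 ± 0.15, adjusted p = 1.07e-05). Neither overlapped between the groups. Birc5 (survivin, of the complex that corrects chromosome attachment) read 6.63, 6.999 and 6.75 in OIR, against 5.24, 5.01 and 5.45 in normoxia (1.56 ± 0.22, adjusted p = 6.92e-05). Mki67, whose protein Ki-67 coats mitotic chromosomes and marks cycling cells, read 8.73, 8.78 and 9.25 in OIR, against 7.62, 6.84 and 7.98 in normoxia (1.44 ± 0.27, adjusted p = 0.00187). In both, every OIR retina exceeded every normoxia retina, and normoxia retinas varied more among themselves than OIR retinas for Mki67.

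Promoter sequences of 6 of these genes are shown because the members that rose together include both replication and mitosis genes, whose promoters are known in mammals for different elements: E2F sites in S phase genes, and CCAAT boxes with a cell cycle homology region (CHR) in mitosis genes. Each line holds the 200 bases before the start that RefSeq's promoter table gives (build GRCm38.p6), 5′ to 3′ on the gene's own strand, with matches in capitals. For Top2a and Mki67 that start lies inside the gene's full annotated span, so their windows run into it. The motifs searched on both strands were CCAAT for the box of that name, TTTGAA for the CHR, and for the E2F site its 4 forms (TTTCCCGC, TTTCGCGC, TTTGCCGC and TTTGGCGC). Rrm2 lies at chr12:24708054-24708253 on the plus strand, and the others lie on the minus strand, Mcm6 at chr1:128359706-128359905, Top2a at chr11:99024190-99024389, Cdk1 at chr10:69352913-69353112, Mki67 at chr7:135716380-135716579 and Spc25 at chr2:69206214-69206413.
Rrm2: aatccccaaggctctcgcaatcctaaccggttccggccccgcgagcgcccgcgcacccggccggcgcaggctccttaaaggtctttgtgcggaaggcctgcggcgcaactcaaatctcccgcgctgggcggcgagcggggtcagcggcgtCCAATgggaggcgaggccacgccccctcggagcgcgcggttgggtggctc
Mcm6: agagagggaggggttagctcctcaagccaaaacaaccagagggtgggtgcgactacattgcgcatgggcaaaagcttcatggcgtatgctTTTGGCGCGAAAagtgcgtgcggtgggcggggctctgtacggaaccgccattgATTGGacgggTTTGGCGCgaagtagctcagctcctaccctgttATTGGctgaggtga
Top2a: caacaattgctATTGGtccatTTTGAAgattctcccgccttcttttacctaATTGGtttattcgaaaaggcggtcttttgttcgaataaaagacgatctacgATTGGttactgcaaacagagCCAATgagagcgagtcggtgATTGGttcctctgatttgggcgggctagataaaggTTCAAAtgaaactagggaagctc
Cdk1: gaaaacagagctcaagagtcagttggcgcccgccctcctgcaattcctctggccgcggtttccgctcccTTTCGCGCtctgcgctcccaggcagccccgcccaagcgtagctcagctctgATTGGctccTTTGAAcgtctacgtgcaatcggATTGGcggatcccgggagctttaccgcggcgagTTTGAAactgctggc
Mki67: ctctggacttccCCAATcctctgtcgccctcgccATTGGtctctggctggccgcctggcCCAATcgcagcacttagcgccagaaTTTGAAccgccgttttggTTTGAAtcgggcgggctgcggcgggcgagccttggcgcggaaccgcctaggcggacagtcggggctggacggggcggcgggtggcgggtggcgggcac
Spc25: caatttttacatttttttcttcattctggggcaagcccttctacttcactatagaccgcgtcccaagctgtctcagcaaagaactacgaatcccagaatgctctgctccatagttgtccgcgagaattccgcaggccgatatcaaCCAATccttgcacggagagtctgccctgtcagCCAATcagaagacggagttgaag
Mcm6, the helicase subunit, holds 3 E2F matches and no CHR match, and 2 of the E2F matches overlap by 4 bases. Top2a, Cdk1 and Mki67 each hold 2 CHR matches beside their CCAAT boxes, and Cdk1 also holds an E2F match. Spc25, which fell, holds 2 CCAAT boxes and neither of the other motifs, and Rrm2 holds a single CCAAT box. RefSeq windows were found for 34 of the 40 measured members (36 windows over 250 bases), and Ccna2, Ccnd1, Ccne2, Aurkb, Mcm4 and Kif20a had no entry. A CCAAT box stood in 27 of 36 windows (75.0%), against 33.8% of all 32851 promoter windows. TTTGAA stood in 8 of 22 mitosis windows (36.4%) and 2 of 14 S phase windows (14.3%), against 15.99% of all. Only 3 mitosis windows held it 2 or more times (13.6%, against 1.81% of all), those of Top2a, Cdk1 and Mki67 shown above. An E2F form stood in 4 of 14 S phase windows (28.6%) and 1 of 22 mitosis windows (4.55%), against 1.86% of all. Matches describe letters only.

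**Figure D1:**
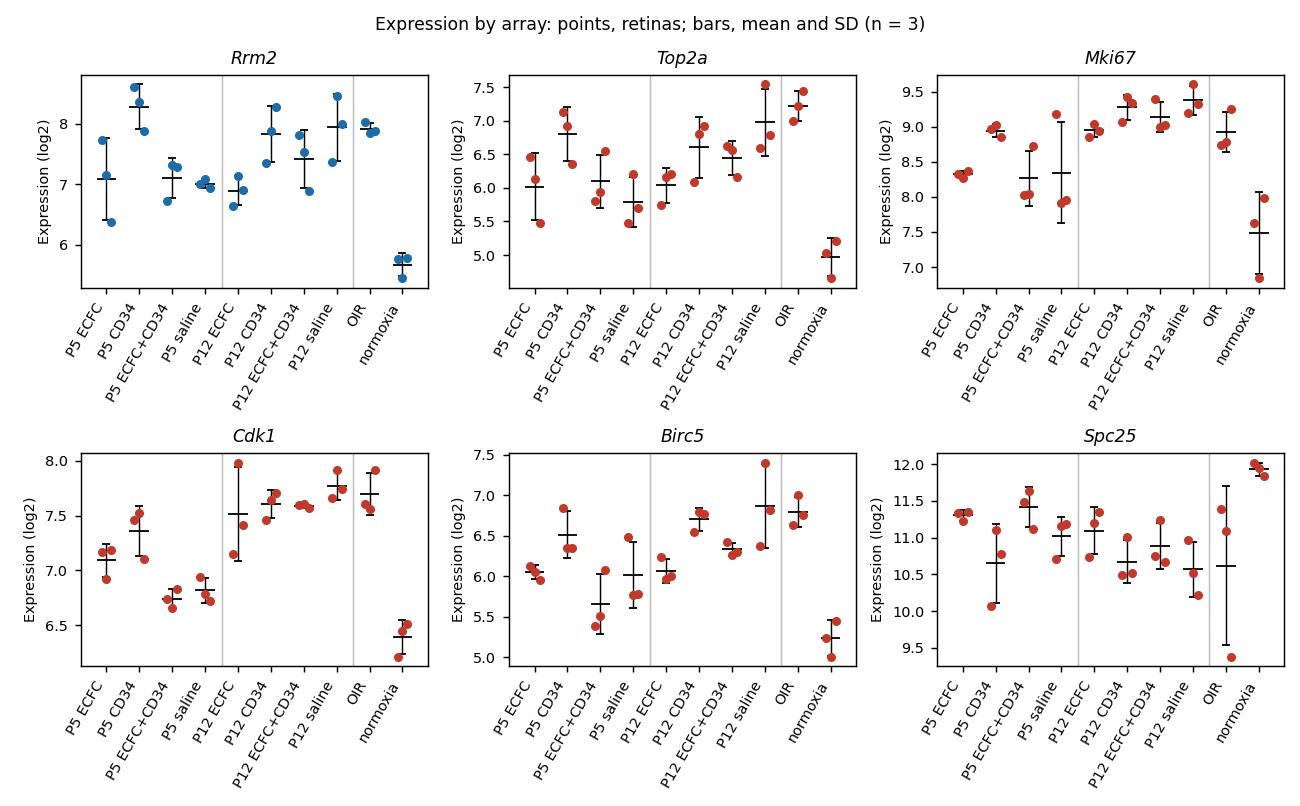
Log2 intensity of Rrm2, Top2a, Mki67, Cdk1, Birc5 and Spc25 on each of the 30 arrays, by group, with the group mean and SD. In the first 5 genes the 3 OIR retinas lie above the 3 normoxia retinas, and in Spc25 they lie below (the highest OIR value is 11.39, the lowest normoxia value 11.83).

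Among the 15 S phase members 6 rose: Rrm2, Mcm6, Mcm5 (0.92 ± 0.14, adjusted p = 2.60e-04), Mcm3 (0.71 ± 0.15), Mcm2 (0.66 ± 0.16) and the thymidine salvage enzyme Tk1 (0.74 ± 0.16). Thus 4 of the 6 helicase subunits rose. The large reductase subunit Rrm1 (0.23 ± 0.10) and the sliding clamp Pcna (0.27) did not pass. Among the 24 mitosis members 7 rose. Beside Cdk1, Top2a, Mki67 and Birc5 these were Prc1, which bundles the microtubules between the separating chromosomes (0.92 ± 0.14, adjusted p = 1.64e-04), the B-type cyclin Ccnb2 (0.86 ± 0.20) and Ube2c, an enzyme that tags mitotic proteins for destruction (0.75 ± 0.18). Ccnd1, the cyclin that couples growth signals to cycle entry, read 10.03, 10.22 and 10.73 in OIR, against 9.54, 9.51 and 9.38 in normoxia, without overlap (0.85 ± 0.17, adjusted p = 0.00284).

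Spc25, a subunit of the kinetochore complex that holds microtubules, was the 1 member that fell. It read 11.39, 11.09 and 9.38 in OIR, against 12.01, 11.95 and 11.83 in normoxia (-1.31 ± 0.34, adjusted p = 0.0268). OIR retinas all lay below normoxia retinas, and the third lay far below the other two. A second Spc25 probe set fell as well (-0.98 ± 0.24). The other probe sets of Rrm2 rose by smaller amounts (0.61 ± 0.17 and 1.44 ± 0.19), whereas a second Top2a probe set gave -0.02 ± 0.14.

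The median member stood 0.38 higher in OIR, against -0.02 for all genes, with medians of 0.29 for S phase and 0.38 for mitosis members, and 33 of 40 differences were positive. Arrays of the 2 groups did not overlap in 25 members that were higher in OIR, against 12.9% of all genes, and in 1 that was lower, against 13.3%. In lists of further cycle genes, also written with earlier results of these data known, most genes did not pass. Of 50 other mitosis genes 8 rose and none fell, where 3.59% of all genes rose, among them the kinase Pbk (1.28 ± 0.26), the abscission protein Cep55 (1.38 ± 0.33), the spindle assembly factor Tpx2 (0.96 ± 0.18), the kinetochore gene Nuf2 (0.83 ± 0.19) and Cenph (0.56 ± 0.13). Of 47 other S phase genes 2 rose, a share near that of all genes, the uracil repair enzyme Ung (0.97 ± 0.18) and the helicase cofactor Gins1 (0.86 ± 0.20). Of 38 regulators 5 rose: the cycle inhibitor Cdkn1a (1.47 ± 0.31), the cyclins Ccnd2 (0.99 ± 0.22) and Ccnd3 (0.42 ± 0.11), the kinase Cdk6 (0.71 ± 0.20) and the transcription factor Myc (1.19 ± 0.26). An inhibitor and activators of the G1 step were thus among the genes that rose.

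**Figure D2:**
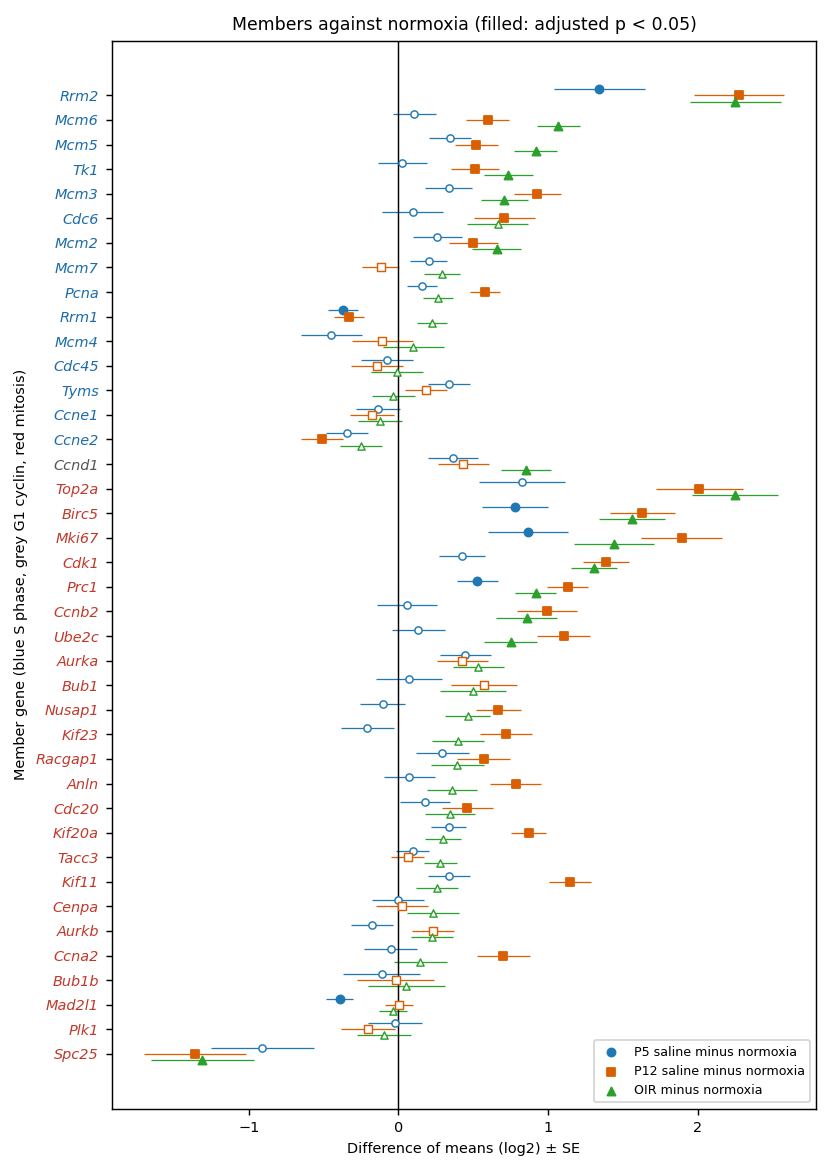
Log2 difference from normoxia (± SE) of each of the 40 members in P5 saline, P12 saline and OIR retinas, with filled points where the adjusted p was under 0.05. OIR and P12 saline have 15 and 26 filled points, P5 saline 6, and Spc25 lies below 0 in all 3.

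Markers of other cell types differed between the same groups. Endothelial markers averaged 9.13 (9.10 to 9.17) in OIR and 8.20 (8.13 to 8.26) in normoxia (mean, lowest to highest array), with 11 of 18 higher. Pericyte and mural markers averaged 9.04 (8.91 to 9.15) in OIR and 8.12 (8.08 to 8.16) in normoxia, with 8 of 11 higher. Astrocyte markers averaged 9.13 (8.99 to 9.30) in OIR and 8.60 (8.52 to 8.67) in normoxia, with 1 of 5 higher and 1 lower. Microglia and macrophage markers averaged 7.997 (7.89 to 8.06) in OIR and 7.14 (7.09 to 7.21) in normoxia, with 3 of 16 higher. Retinal progenitor markers averaged 8.78 (8.68 to 8.85) in OIR and 8.72 (8.63 to 8.81) in normoxia, with 1 of 11 higher. The part of these cells in the cycle gene differences was not tested. Without OIR replicate 3, Mcm2, Mcm3, Ccnb2, Ube2c and Spc25 no longer passed (adjusted p 0.0582 to 0.23); Spc25 also lost its call without any 1 normoxia retina (adjusted p 0.0646, 0.0572 and 0.0735), Mcm2 without normoxia replicate 1 or 3 and Ube2c without replicate 2.

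Over all 10 groups the S phase and mitosis members often peaked in different groups. P12 saline held the highest group mean for 14 members, 12 of mitosis and 2 of S phase, and OIR held it for 11, 7 of S phase, 3 of mitosis and Ccnd1. Normoxia held the lowest mean for 20 members (8 S phase, 11 mitosis and Ccnd1). Rrm2 had the widest spread of group means, 2.62, with P5 CD34+ retinas highest (8.29) and normoxia lowest (5.67). Plk1, the polo-like mitotic kinase, and Cdc45, a helicase cofactor, had the narrowest (0.24 and 0.26). These ranks carry no test and were not repeated under other scalings. The P12 arrays stand apart in the hybridisation controls. Called members of P12 saline against OIR moved with scaling, from 4 higher and 4 lower as deposited to 7 and 1 under median centring.

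**Figure D3:**
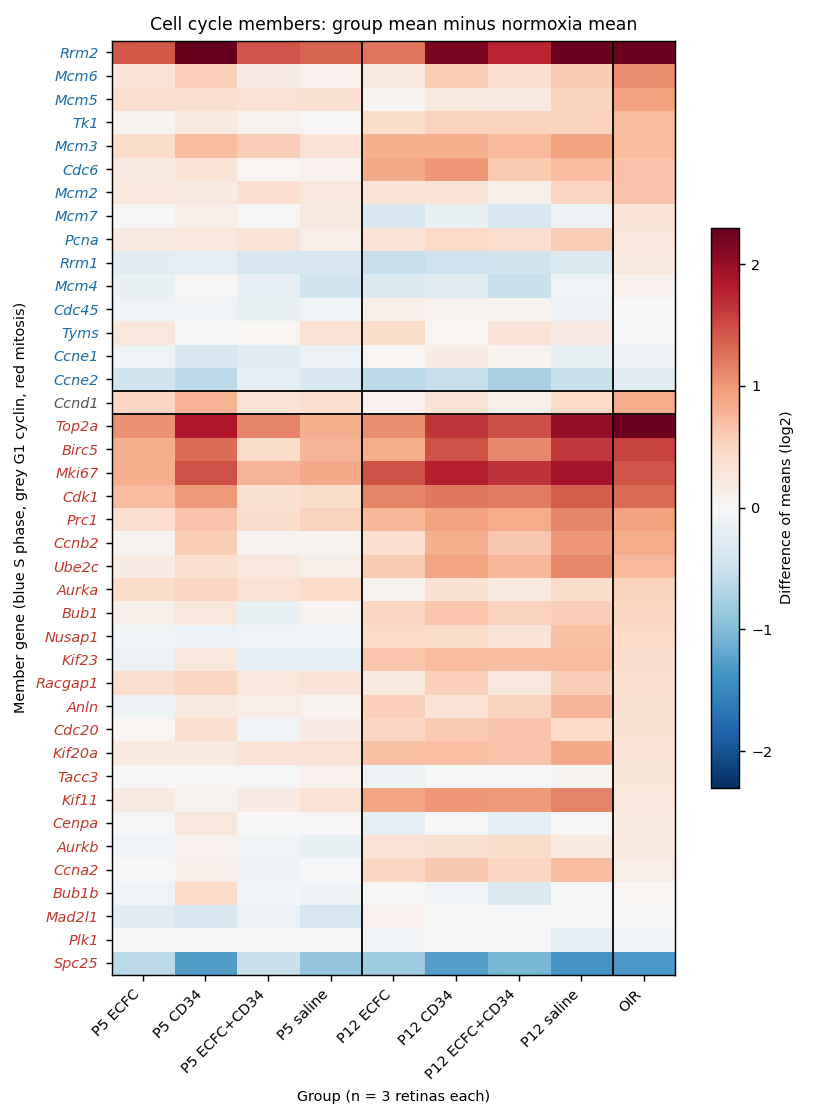
Group mean minus the normoxia mean (log2) for 40 members in the 9 other groups, S phase and mitosis members apart. Rrm2 and Top2a are above normoxia in all 9 groups and Spc25 is below it in all 9.

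Over the 30 arrays the median Pearson r between 2 mitosis members was 0.43 (276 pairs), between 2 S phase members 0.09 (105 pairs) and between the sets 0.21 (360 pairs). With group means subtracted the medians were 0.20, 0.15 and 0.15. Ccnb2 (0.93), Cdk1 (0.90), Birc5 (0.87) and Top2a (0.85) followed the mean of the other members most closely, while Spc25 (-0.68) and the E-type cyclin Ccne2 (-0.37) ran against it. All pairs share the same 30 arrays and their group differences, so these are descriptions.

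Outside the members, the genes most like the mean of the standardized members over 30 arrays were Adm (0.93), Tagln2 (0.90), Stc2 (0.89), Esm1 (0.89), Cep55 (0.89), Arhgdib (0.89), Hsd17b2 (0.88), Zfp36 (0.88), Sat1 (0.88) and Tpm4 (0.88), by Pearson r. Cep55, which acts in the last step of cell separation, is the 1 gene of the further cycle lists among them. Adm encodes the vasodilator adrenomedullin and Esm1 is a marker of sprouting endothelium, and the list was not sorted by cell type. After subtraction of group means they were Tspan4 (0.77), Tnfsf9 (0.75), Nlrx1 (0.73), Pus7 (0.73), Cks2 (0.72), Fadd (0.72), Med11 (0.72), Cyb561d2 (0.71), Cep55 (0.70) and Cdca5 (0.70), of which Cks2, Cep55 and Cdca5 are cycle genes.

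**Figure D4:**
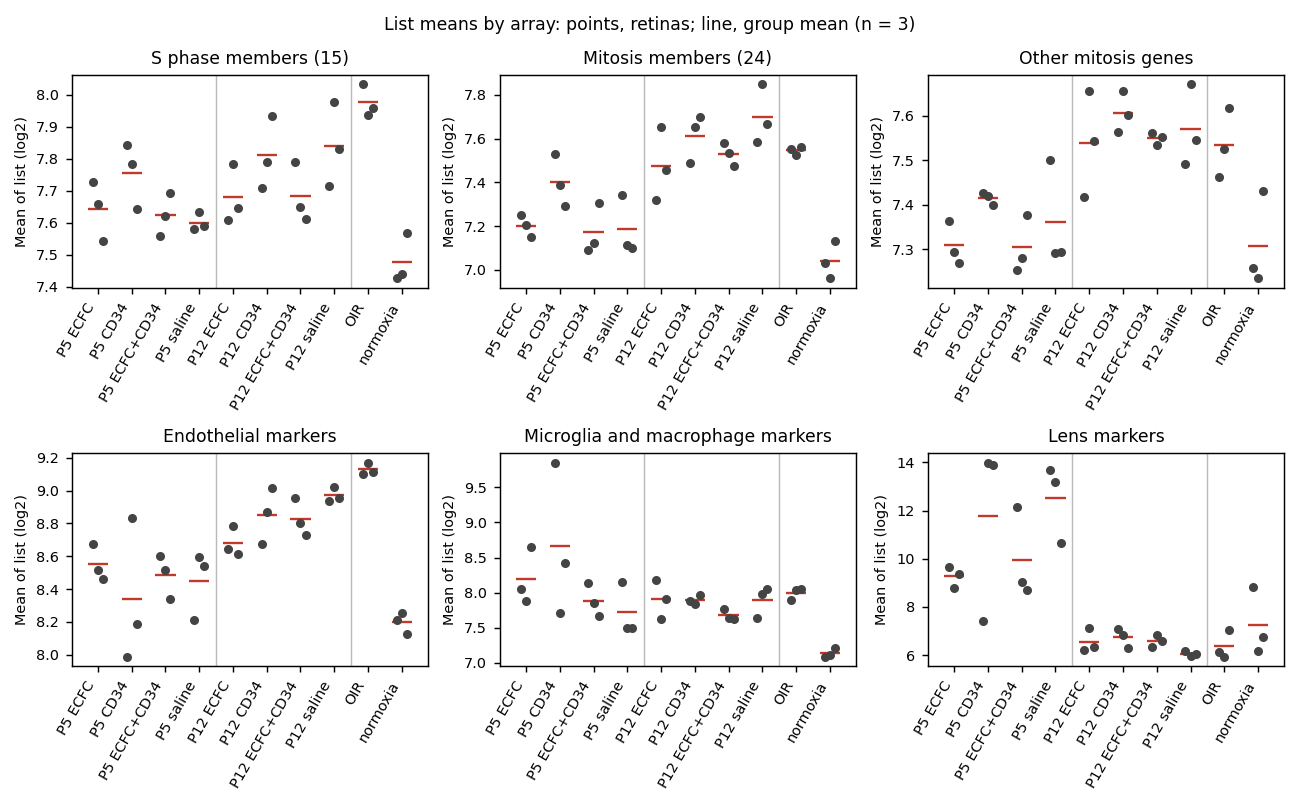
Mean log2 intensity on each array of the S phase members, the mitosis members, other mitosis genes, and endothelial, microglia and macrophage, and lens markers, by group. The mitosis members average 7.70 in P12 saline, 7.55 in OIR and 7.04 in normoxia, and lens markers are above 10 on all 3 P5 saline arrays.

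Retinas injected with saline at P12 also had high levels of division genes. Against normoxia, P12 saline retinas had 23 members higher and 3 lower, 26 of 40, where 27.5% of all genes were called (9.93% higher and 17.6% lower). Of these, 8 S phase and 15 mitosis members rose. Rrm2 read 7.36, 8.47 and 8.003 and Mki67 9.20, 9.61 and 9.32 in P12 saline, all above their normoxia values (differences 2.28 ± 0.30, adjusted p = 9.61e-06, and 1.89 ± 0.27, adjusted p = 2.02e-05). Cdk1 (1.38 ± 0.15), Prc1 (1.13 ± 0.14), the spindle motor Kif11 (1.15 ± 0.14), Birc5 (1.63 ± 0.22), the cytokinesis motor Kif20a (0.87 ± 0.12), Top2a (2.01 ± 0.29) and Ube2c (1.10 ± 0.18) rose as well. So did Mcm3 (0.93 ± 0.15), Pcna (0.58 ± 0.10), Ccnb2 (0.99 ± 0.20), the contractile ring organiser Anln (0.78 ± 0.17), the spindle protein Nusap1 (0.67 ± 0.15) and Mcm6 (0.60 ± 0.14). Ccnd1 gave 0.43 ± 0.17, adjusted p = 0.0559, so the G1 cyclin did not pass here.

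The 3 members that fell against normoxia were Spc25, Ccne2 and Rrm1. Spc25 read 10.97, 10.52 and 10.22 in P12 saline, against 12.01, 11.95 and 11.83 in normoxia, with no overlap (-1.36 ± 0.34, adjusted p = 0.00441). Ccne2 changed by -0.51 ± 0.14, adjusted p = 0.00815. With the hybridisation controls as a covariate the Ccne2 call ended (limma adjusted p = 0.133), as did that of Rrm1. The Spc25 call held in all 17 other settings. Rrm1 read 9.75, 10.06 and 9.84 in P12 saline, against 10.06, 10.37 and 10.21 in normoxia, ranges that touch (-0.33 ± 0.10, adjusted p = 0.0168), and the mean of its probe sets gave 0.22 in the opposite direction. Median differences were 0.50 for S phase and 0.68 for mitosis members, against -0.04 for all genes. The calls of Cdc20, Racgap1, Mcm2, Mcm5, Tk1, Cdc6 and Rrm1 each ended when 1 array or another of the 6 was left out (6 ended without P12 saline replicate 2, adjusted p 0.0503 to 0.122).

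Of 50 other mitosis genes 16 rose and 3 fell, where 9.93% of all genes rose and 17.6% fell, with Cep55 (1.58 ± 0.33), Pbk (1.23 ± 0.26), Tpx2 (1.0002 ± 0.18), the DNA-bending protein Hmgb2 (0.75 ± 0.11) and the condensin subunit Ncapg (0.52 ± 0.11) higher, and Cit (-0.55 ± 0.13), Kif22 (-0.29 ± 0.11) and Pttg1 (-0.28 ± 0.08) lower. Of 47 other S phase genes 3 rose and 8 fell: Rfc3 (0.74 ± 0.15), Usp1 (0.71 ± 0.12) and Cdca7 (0.39 ± 0.13) were higher, and Timeless (-0.72 ± 0.14), the kinase Cdc7 (-0.72 ± 0.11), the flap nuclease Fen1 (-0.54 ± 0.10), Rfc2 (-0.49 ± 0.11) and Rpa1 (-0.47 ± 0.10) lower. The counts of this S phase list lie near or under the shares of all genes. Of 38 regulators 8 rose and 2 fell, with Ccnd2 (1.05 ± 0.22), Cdkn1a (0.91 ± 0.31), the transcription factor E2f3 (0.81 ± 0.14), Myc (0.76 ± 0.26) and the inhibitor Cdkn2c (0.58 ± 0.17) higher, and Ccng2 (-0.56 ± 0.12) and E2f4 (-0.54 ± 0.11) lower. Endothelial markers averaged 8.97 (8.94 to 9.02) in P12 saline and 8.20 (8.13 to 8.26) in normoxia, with 10 of 18 higher, and pericyte and mural markers 8.71 (8.59 to 8.89) in P12 saline and 8.12 (8.08 to 8.16) in normoxia, with 4 of 11 higher. Astrocyte markers averaged 9.12 (9.02 to 9.21) in P12 saline and 8.60 (8.52 to 8.67) in normoxia, with 2 of 5 higher and 1 lower, and microglia and macrophage markers 7.89 (7.64 to 8.06) in P12 saline and 7.14 (7.09 to 7.21) in normoxia, with 6 of 16 higher. The part of these cells in the result was not tested. Hybridisation controls averaged 13.37 (13.25 to 13.48) in P12 saline and 12.66 (12.58 to 12.79) in normoxia, and their part was not tested beyond the covariate fit.

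Set against OIR retinas without injection, P12 saline retinas had 4 members higher and 4 lower. That is 8 of 40, and 21.3% of all genes were called, 5.95% higher and 15.4% lower, so the members were called about as often as all genes. Arrays of the 2 groups did not overlap in 8 members that were higher and 7 that were lower, against 20.1% and 28.3% of all genes. The members that rose were Kif11 (0.89 ± 0.14, adjusted p = 1.07e-04), Kif20a (0.57 ± 0.12, adjusted p = 0.00123), Ccna2, the A-type cyclin (0.56 ± 0.18, adjusted p = 0.0268), and Pcna (0.31 ± 0.10, adjusted p = 0.0304). Those that fell all belong to S phase: Rrm1 (-0.56 ± 0.10, adjusted p = 4.12e-04), Mcm7 (-0.41 ± 0.12, adjusted p = 0.0195), Mcm6 (-0.47 ± 0.14, adjusted p = 0.021) and Mcm5 (-0.40 ± 0.14, adjusted p = 0.049). Kif11 read 7.92, 8.18 and 8.04 in P12 saline, against 7.21, 6.91 and 7.36 in OIR. Rrm1 read 9.75, 10.06 and 9.84 in P12 saline, against 10.44, 10.41 and 10.47 in OIR. Neither gene overlapped, while Mcm5 did (6.76, 7.25 and 6.81 in P12 saline, against 7.51, 7.37 and 7.14 in OIR). The Mcm5 call ended in 11 of 16 other settings (adjusted p 0.00738 to 0.795 over all 16), the Mcm6 call in 6 of 17 and the Mcm7 call in 5 of 17. With the hybridisation controls as a covariate the calls of Rrm1, Mcm7, Mcm6, Mcm5 and Ccna2 ended, while Kif11, Kif20a and Pcna held. The Rrm1 and Kif11 calls ended with the mean of each gene's probe sets. The Pcna call ended whichever of the 6 arrays was left out (adjusted p 0.0563 to 0.113), and the Ccna2 call without P12 saline replicate 1 or 2 or OIR replicate 2 (adjusted p 0.0744 to 0.104). The Ccna2 call also ended with the mean of its probe sets.

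Rrm2 (0.02 ± 0.30), Top2a (-0.24 ± 0.29), Mki67 (0.45 ± 0.27), Spc25 (-0.05 ± 0.34) and Ccnd1 (-0.42 ± 0.17, adjusted p = 0.0802) did not pass. Of 47 other S phase genes 2 rose, Rfc3 (0.56 ± 0.15) and Usp1 (0.36 ± 0.12), and 11 fell, among them Timeless (-0.76 ± 0.14), Pold2 (-0.74 ± 0.18), Cdc7 (-0.49 ± 0.11), Fen1 (-0.44 ± 0.10) and Rfc2 (-0.43 ± 0.11). Of 50 other mitosis genes Kif2c (0.56 ± 0.17) and Tmpo (0.31 ± 0.11) rose and Pttg1 (-0.28 ± 0.08) fell, and of 38 regulators E2f3 (0.48 ± 0.14) rose and E2f4 (-0.64 ± 0.11), Cdkn2d (-0.43 ± 0.11) and Ccng2 (-0.35 ± 0.12) fell. The balance depended on scaling: median centring moved the median of all genes to 0.16, against -0.03 as deposited, and gave 7 higher and 1 lower, with Rrm1 the member still lower, and quantile normalization gave 4 higher and 2 lower. A second Rrm1 probe set moved the other way (0.55 ± 0.13) and the other Kif11 probe sets gave -0.003 ± 0.30 and 0.22 ± 0.14. The count fell to 3 without P12 saline replicate 1 (adjusted p 0.0563 to 0.214 for those lost), 5 without P12 saline replicate 3 and 4 without OIR replicate 2, and to 4 with the hybridisation controls as a covariate; those controls averaged 13.37 (13.25 to 13.48) in P12 saline and 12.49 (12.44 to 12.52) in OIR. Endothelial markers averaged 8.97 (8.94 to 9.02) in P12 saline and 9.13 (9.10 to 9.17) in OIR, with 2 of 18 higher and 2 lower, and pericyte and mural markers 8.71 (8.59 to 8.89) in P12 saline and 9.04 (8.91 to 9.15) in OIR, with 2 of 11 lower. Neither list's mean overlapped between the groups, and the part of these cells was not tested.

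Several division genes were lower in P5 saline retinas than in either of the other OIR groups without cells. Against OIR, P5 saline retinas had 12 members lower and 0 higher, against 8.69% of all genes called (4.88% lower and 3.81% higher). The S phase members that fell were Mcm6 (-0.96 ± 0.14, adjusted p = 4.37e-04), Rrm1 (-0.60 ± 0.10), Tk1 (-0.71 ± 0.16) and Mcm5 (-0.57 ± 0.14). The Rrm1 call ended with the mean of its probe sets. The mitosis members that fell were Top2a (-1.43 ± 0.29, adjusted p = 0.00356), Cdk1 (-0.88 ± 0.15, adjusted p = 0.00111), Ccnb2 (-0.80 ± 0.20), Birc5 (-0.78 ± 0.22), Ube2c (-0.62 ± 0.18), the central spindle motor Kif23 (-0.60 ± 0.17), Nusap1 (-0.57 ± 0.15) and the spindle checkpoint protein Mad2l1 (-0.36 ± 0.09). Top2a read 5.48, 6.20 and 5.70 in P5 saline, against 6.99, 7.22 and 7.44 in OIR, and Mcm6 read 8.87, 9.25 and 9.10 in P5 saline, against 10.14, 9.84 and 10.12 in OIR. Neither overlapped, and of the 12 only Ube2c did.

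Rrm2 read 7.01, 7.09 and 6.93 in P5 saline, all below OIR, and gave -0.91 ± 0.30, adjusted p = 0.0633. Ccnd1 (-0.49 ± 0.17), Mki67 (-0.57 ± 0.27) and Spc25 (0.40 ± 0.34) did not pass either. The median member was -0.38, against 0.02 for all genes. Among other S phase genes 3 of 47 fell (Lig1, -0.44; Pola1, -0.57; Pole2, -0.62), among other mitosis genes 8 of 50, such as Cep55 (-1.37 ± 0.33), the condensin genes Smc2 (-0.89 ± 0.21) and Smc4 (-0.47 ± 0.09), Nuf2 (-0.82 ± 0.19) and Hmgb2 (-0.63 ± 0.11), and among regulators 3 of 38, Cdkn1a (-0.97 ± 0.31), Cdkn1b (-0.47 ± 0.11) and Btg1 (-0.31 ± 0.10). In the same comparison endothelial markers averaged 8.45 (8.21 to 8.60) in P5 saline and 9.13 (9.10 to 9.17) in OIR, with 9 of 18 lower, and pericyte and mural markers 8.27 (8.05 to 8.50) in P5 saline and 9.04 (8.91 to 9.15) in OIR, with 6 of 11 lower. The part of these cells was not tested. All 14 lens markers measured were higher in P5 saline. With the lens marker mean as a covariate 1 member was called, and the part of the lens RNA was not otherwise tested. The count fell to 6 without OIR replicate 3 (adjusted p 0.0525 to 0.191 for those lost).

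Against normoxia, P5 saline retinas had 4 members higher and 2 lower, 6 of 40 where 8.1% of all genes were called (3.91% higher and 4.2% lower). Rrm2 read 7.01, 7.09 and 6.93 in P5 saline, against 5.77, 5.45 and 5.78 in normoxia, with no overlap (1.34 ± 0.30, adjusted p = 0.00813). Birc5 (0.78 ± 0.22, adjusted p = 0.0277), Prc1 (0.53 ± 0.14, adjusted p = 0.0181) and Mki67 (0.87 ± 0.27, adjusted p = 0.0485) rose, and Mad2l1 (-0.39 ± 0.09, adjusted p = 0.0104) and Rrm1 (-0.37 ± 0.10, adjusted p = 0.0244) fell. The Rrm1 call ended in 7 of 17 other settings, among them the mean of its probe sets (limma adjusted p 0.00275 to 0.785 over all 17). Prc1 and Mki67 overlapped: Mki67 read 9.18, 7.91 and 7.95 in P5 saline, the first of these far above the others, against 7.62, 6.84 and 7.98 in normoxia. Top2a (0.83 ± 0.29, adjusted p = 0.0779), Spc25 (-0.91 ± 0.34, adjusted p = 0.104) and Ccnd1 (0.36 ± 0.17) did not pass, and the median member stood at 0.10, against 0.02 for all genes.

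Of the listed genes outside the members, 1 of 47 S phase genes rose and 2 fell (Usp1, 0.37 ± 0.12; Casp8ap2, -0.68 ± 0.15; Pola1, -0.68 ± 0.17). The mitosis genes Cks1b (0.80 ± 0.17) and Tpx2 (0.71 ± 0.18) rose, with 0 of 50 lower. Of 38 regulators 4 rose (E2f3, 0.57 ± 0.14; Ccnd2, 0.74 ± 0.22; Cdk2, 0.41 ± 0.12; Tfdp1, 0.30 ± 0.08) and 2 fell (Ccng2, -0.54 ± 0.12; Cdkn1b, -0.46 ± 0.11). Few listed genes passed between P5 saline and normoxia. The member count of 6 became 1 without P5 saline replicate 1 (Rrm2), 2 without normoxia replicate 2 and 3 without normoxia replicate 3 (adjusted p 0.0531 to 0.28, 0.0777 to 0.246 and 0.0627 to 0.12 for those lost). Under median centring the split was 3 higher and 3 lower, and endothelial markers averaged 8.45 (8.21 to 8.60) in P5 saline and 8.20 (8.13 to 8.26) in normoxia, with 3 of 18 higher, beside lens markers at 12.50 (10.65 to 13.67) in P5 saline and 7.25 (6.16 to 8.81) in normoxia, with 13 of 14 higher. With the lens marker mean as a covariate the calls of Mki67, Prc1, Mad2l1 and Rrm1 ended, while those of Rrm2 and Birc5 held. The count of called members stayed within 1.5 times in that fit. The part of these tissues was not otherwise tested.

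The 2 saline groups differed from each other in 21 of 40 members, all lower at P5, while 27.7% of all genes were called, 8.57% lower and 19.2% higher. Of the 24 mitosis members 15 fell, and of the 15 S phase members 6. Cdk1 read 6.94, 6.79 and 6.72 in P5 saline, against 7.66, 7.92 and 7.74 in P12 saline (-0.96 ± 0.15, adjusted p = 7.20e-05). Kif11 read 7.50, 7.19 and 7.03 in P5 saline, against 7.92, 8.18 and 8.04 in P12 saline (-0.81 ± 0.14, adjusted p = 1.68e-04). Both pairs of groups stood apart. Top2a (-1.19 ± 0.29), Mki67 (-1.03 ± 0.27), Ube2c (-0.97 ± 0.18), Ccnb2 (-0.94 ± 0.20), Kif23 (-0.93 ± 0.17), Birc5 (-0.85 ± 0.22), Nusap1 (-0.77 ± 0.15), Ccna2 (-0.75 ± 0.18) and Anln (-0.71 ± 0.17) fell, as did Prc1 (-0.60 ± 0.14), Kif20a (-0.53 ± 0.12) and Mad2l1 (-0.40 ± 0.09). The Ccna2 call ended in 4 of 17 other settings, among them the mean of its probe sets. Of the S phase members Rrm2 (-0.93 ± 0.30, adjusted p = 0.0233), Mcm3 (-0.59 ± 0.15) and Pcna (-0.42 ± 0.10) fell. Spc25 (0.45 ± 0.34) and Ccnd1 (-0.07 ± 0.17) did not pass, although the other 2 Ccnd1 probe sets fell (-0.60 ± 0.20 and -0.99 ± 0.20).

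Of 50 other mitosis genes 11 fell and 0 rose, where 8.57% of all genes fell and 19.2% rose, with Cep55 (-1.58 ± 0.33), Hmgb2 (-0.93 ± 0.11), the kinase Melk (-0.65 ± 0.14), Smc4 (-0.52 ± 0.09) and Tmpo (-0.43 ± 0.11) among them. Of 47 other S phase genes 11 rose and 3 fell: Pold2 (0.67 ± 0.18), Rfc2 (0.61 ± 0.11), Cdc7 (0.38 ± 0.11), Fen1 (0.36 ± 0.10) and Pold3 (0.33 ± 0.08) were higher, and Pole2 (-0.60 ± 0.15), Rfc3 (-0.43 ± 0.15) and Usp1 (-0.34 ± 0.12) lower, counts near the shares of all genes. The mean of Cdc7's probe sets gave -0.0557. Of 38 regulators 4 rose, the inhibitor Cdkn1c (1.10 ± 0.30), E2f4 (0.52 ± 0.11), Lin37 (0.37 ± 0.09) and Cdkn2d (0.34 ± 0.11), and 4 fell, the inhibitors Cdkn2c (-0.75 ± 0.17) and Cdkn1b (-0.60 ± 0.11), Ccng1 (-0.56 ± 0.13) and Btg1 (-0.31 ± 0.10). Cdkn1c turned to -0.0547 with the lens marker mean as a covariate, and Cdkn2d to -0.0314 with that of the hybridisation controls. Median centring moved the median of all genes to -0.15 and called 25 members lower and 0 higher. Lens markers averaged 12.50 (10.65 to 13.67) in P5 saline and 6.05 (5.96 to 6.15) in P12 saline, and with their mean as a covariate 7 members were called; hybridisation controls averaged 12.22 (11.92 to 12.72) in P5 saline and 13.37 (13.25 to 13.48) in P12 saline, and with their mean as a covariate 12 were called. Endothelial markers averaged 8.45 (8.21 to 8.60) in P5 saline and 8.97 (8.94 to 9.02) in P12 saline, with 7 of 18 lower, and pericyte and mural markers 8.27 (8.05 to 8.50) in P5 saline and 8.71 (8.59 to 8.89) in P12 saline, with 4 of 11 lower; the part of these cells was not tested. Rrm2, Mcm6, Tk1, Cdc6, Birc5 and Aurkb each lost the call when 1 array was left out (5 of these without P12 saline replicate 2, adjusted p 0.0521 to 0.145).

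None of the 3 cell preparations given at P12 changed a member past the threshold against P12 saline: 0 of 40 for ECFC, for CD34+ and for the combination, with 0.0161%, 0% and 0% of all genes called by limma. At an unadjusted p under 0.05 there were 9, 2 and 5 members. The share of all genes at that level was not counted, here or in later comparisons, so these counts have no background beside them. Most differences were nonetheless negative, in 31, 29 and 32 of 40 members, with medians of -0.21, -0.09 and -0.21, against 0.02, 0.05 and -0.02 for all genes. The 3 comparisons share the P12 saline retinas. Arrays did not overlap and were lower in 15, 5 and 12 members, against 13.6%, 6.73% and 10.2% of all genes, and higher in 0, 2 and 1, against 13.9%, 14% and 13.7%.

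After ECFC the smallest p-values belonged to Birc5, Rrm2 and Top2a. Birc5 read 6.24, 5.96 and 5.9999 in P12 ECFC, against 6.38, 7.40 and 6.82 in P12 saline (-0.80 ± 0.22, adjusted p = 0.152). Rrm2 read 6.65, 7.14 and 6.90 in P12 ECFC, against 7.36, 8.47 and 8.003 in P12 saline (-1.05 ± 0.30, adjusted p = 0.173, 95% interval -1.67 to -0.42). Top2a read 5.74, 6.16 and 6.21 in P12 ECFC, against 6.60, 7.54 and 6.79 in P12 saline (-0.94 ± 0.29, adjusted p = 0.18). In all 3 genes the ECFC arrays lay below the saline arrays, and none passed over all genes. Mki67 (-0.43 ± 0.27), Ccnd1 (-0.33 ± 0.17) and Spc25 (0.52 ± 0.34) did not pass. Mitosis members averaged 7.48 (7.32 to 7.65) in P12 ECFC and 7.70 (7.58 to 7.85) in P12 saline, and endothelial markers 8.68 (8.61 to 8.78) in P12 ECFC and 8.97 (8.94 to 9.02) in P12 saline, with 0 of 18 called. The part of the endothelial cells was not tested. With array weights 18 members were called in this comparison, and the share of all genes under those weights is not given here.

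After CD34+ cells the smallest p-values belonged to Anln (-0.46 ± 0.17, adjusted p = 0.924), Ccne1 (0.34 ± 0.15, adjusted p = 0.924) and Mcm5 (-0.29 ± 0.14, adjusted p = 0.925). Rrm2 read 7.36, 7.88 and 8.28 in P12 CD34+ retinas (-0.11 ± 0.30, 95% interval -0.73 to 0.52), within the range of P12 saline except for the first, which lay just below it. Top2a (-0.37 ± 0.29), Mki67 (-0.10 ± 0.27), Ccnd1 (-0.12 ± 0.17) and Spc25 (0.10 ± 0.34) did not pass. After the combination they belonged to Nusap1 (-0.37 ± 0.15, adjusted p = 0.497), Birc5 (-0.53 ± 0.22, adjusted p = 0.497) and Mcm2 (-0.38 ± 0.16, adjusted p = 0.499). Rrm2 read 7.82, 7.54 and 6.90 in P12 combination retinas (-0.53 ± 0.30), overlapping P12 saline. Top2a (-0.53 ± 0.29), Mki67 (-0.24 ± 0.27), Ccnd1 (-0.32 ± 0.17) and Spc25 (0.32 ± 0.34) did not pass.

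**Figure D5:**
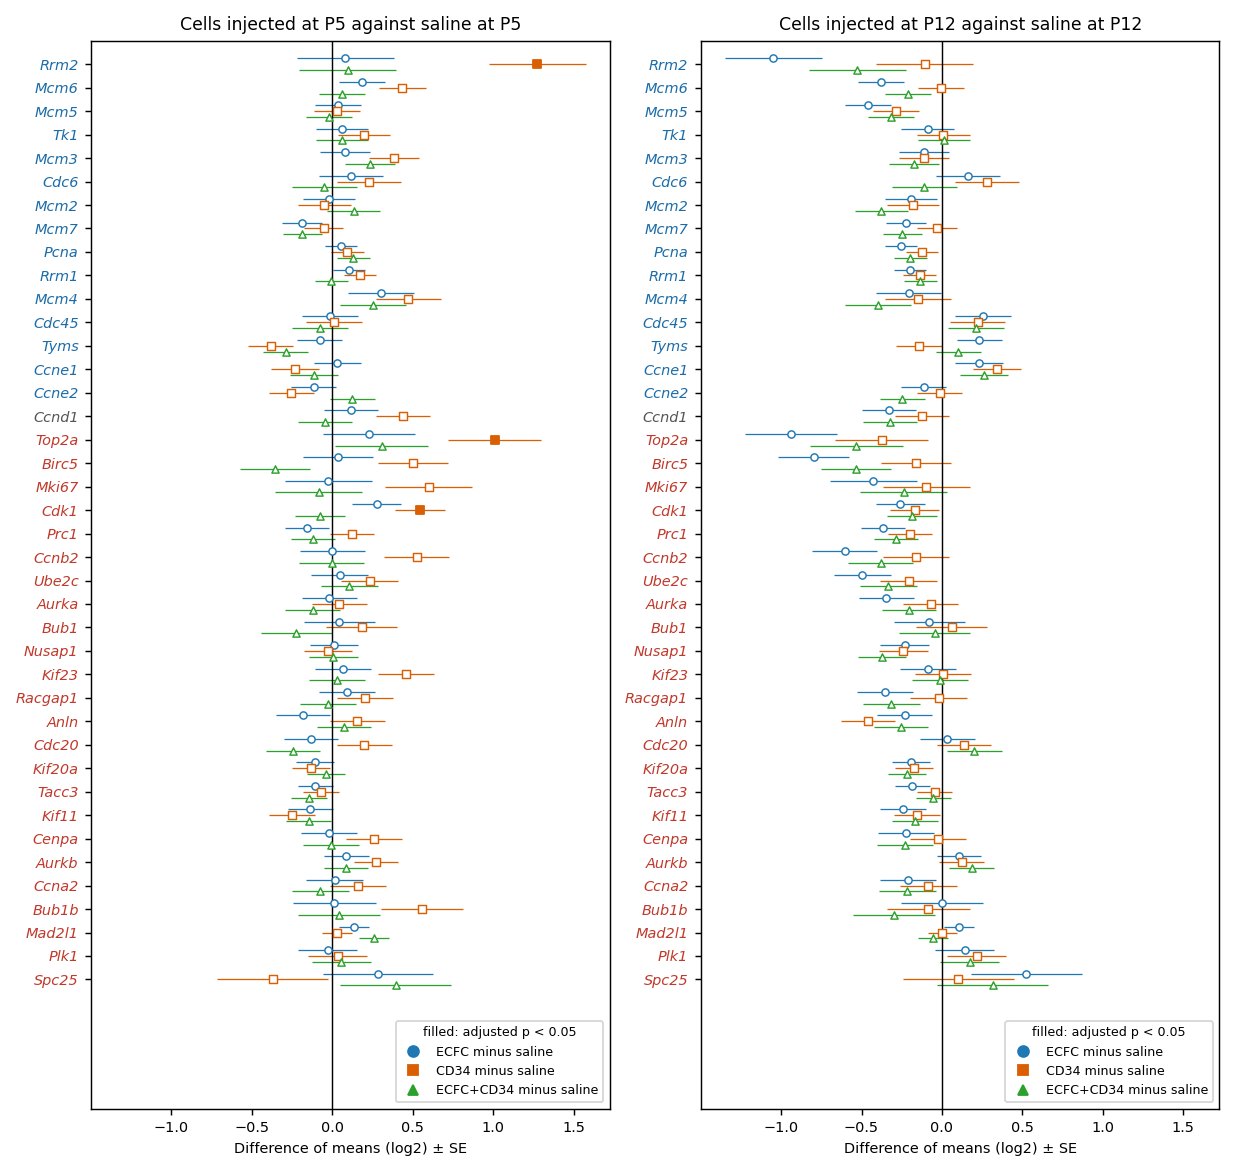
Log2 difference (± SE) of each of the 40 members between cell-injected and saline-injected retinas, for injection at P5 and at P12, with filled points where the adjusted p was under 0.05. The 3 filled points are Rrm2, Cdk1 and Top2a after CD34+ cells at P5.

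After CD34+ cells given at P5, Rrm2, Cdk1 and Top2a rose against saline of the same day. These are 3 of 40 members called, a share near the 8.46% of all genes called (3.07% rose and 5.4% fell). Rrm2 read 8.61, 8.37 and 7.88 in P5 CD34+, against 7.01, 7.09 and 6.93 in P5 saline (1.28 ± 0.30, adjusted p = 0.0112, 2.42-fold). Top2a read 7.13, 6.93 and 6.35 in P5 CD34+, against 5.48, 6.20 and 5.70 in P5 saline (1.01 ± 0.29, adjusted p = 0.0309). Cdk1 read 7.46, 7.52 and 7.10 in P5 CD34+, against 6.94, 6.79 and 6.72 in P5 saline (0.55 ± 0.15, adjusted p = 0.0289). None of the 3 overlapped between the groups, and the third CD34+ retina was the lowest of its group each time. The Top2a call ended in 7 of 16 other settings, quantile normalization and array weights among them. The Cdk1 call ended in 5 of 17 and the Rrm2 call in 2 of 17. Over all members, arrays did not overlap in 8 that were higher and 2 that were lower, against 7.42% and 11.3% of all genes. Ccnd1 (0.44 ± 0.17, adjusted p = 0.109), Mki67 (0.60 ± 0.27, adjusted p = 0.184) and Spc25 (-0.37 ± 0.34) did not pass. The median member stood at 0.18, against -0.03 for all genes. An unadjusted p under 0.05 was found in 13 members, with no share of all genes counted at that level.

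Of 38 regulators 5 rose and 0 fell, namely Ccnd2 (1.13 ± 0.22, adjusted p = 0.00345), the inhibitors Cdkn2b (1.16 ± 0.36), Cdkn2c (0.69 ± 0.17) and Cdkn1b (0.38 ± 0.11), and Ccng1 (0.49 ± 0.13). Of 50 other mitosis genes Cdca5, which guards sister chromatid cohesion, rose (0.90 ± 0.23), and 4 fell: the kinetochore gene Zwint (-0.72 ± 0.13), the microtubule destabiliser Stmn1 (-0.44 ± 0.11), Cit (-0.44 ± 0.13) and Ncapg (-0.39 ± 0.11). Of 47 other S phase genes Orc6 fell (-0.45 ± 0.10). Microglia and macrophage markers averaged 8.66 (7.71 to 9.85) in P5 CD34+ and 7.72 (7.50 to 8.16) in P5 saline, with 3 of 16 higher, and pigment epithelium markers 10.32 (10.16 to 10.50) in P5 CD34+ and 9.35 (8.46 to 10.08) in P5 saline, with 4 of 11 higher. Endothelial markers averaged 8.34 (7.99 to 8.83) in P5 CD34+ and 8.45 (8.21 to 8.60) in P5 saline, with 0 of 18 called, and lens markers 11.77 (7.43 to 13.99) in P5 CD34+ and 12.50 (10.65 to 13.67) in P5 saline, with 0 of 14 called. The calls of Rrm2, Cdk1 and Top2a held with the lens marker mean as a covariate. The part of these cells was not otherwise tested. No member passed without P5 CD34+ replicate 1 (adjusted p 0.052 to 0.127 for the 3) or with the 2 groups alone in the fit. That array stands apart in its group: its lens markers averaged 7.43, against 13.99 and 13.88 in the other CD34+ retinas, its microglia and macrophage markers 9.85, against 7.71 and 8.42, and its hybridisation controls 11.86, against 12.71 and 12.87. Further, 1 member passed without P5 saline replicate 3, and 5 without P5 saline replicate 1 or without P5 CD34+ replicate 3.

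Neither ECFC nor the combination changed a member at P5: 0 of 40 each, with 0% and 0% of all genes called by limma, and 0 and 1 members at an unadjusted p under 0.05. After ECFC the smallest p-values were those of Cdk1 (0.28 ± 0.15, adjusted p = 0.837), Mcm7 (-0.19 ± 0.12, adjusted p = 0.879) and Mcm4 (0.30 ± 0.20, adjusted p = 0.89). Rrm2 read 7.74, 7.16 and 6.39 in P5 ECFC, with saline values inside that range (0.08 ± 0.30, 95% interval -0.54 to 0.71). Top2a (0.23 ± 0.29), Mki67 (-0.02 ± 0.27), Ccnd1 (0.12 ± 0.17) and Spc25 (0.28 ± 0.34) did not pass. After the combination Mad2l1 (0.26 ± 0.09, adjusted p = 0.465), Tyms (-0.29 ± 0.14, adjusted p = 0.633) and Birc5 (-0.36 ± 0.22, adjusted p = 0.735) had the smallest p-values. Rrm2 (0.10 ± 0.30), Top2a (0.31 ± 0.29), Mki67 (-0.08 ± 0.27), Ccnd1 (-0.05 ± 0.17) and Spc25 (0.39 ± 0.34) did not pass. Arrays did not overlap and were higher in 1 of 40 after ECFC, against 3.49% of all genes. The median member stood at 0.03 after ECFC and -0.01 after the combination.

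Between cell preparations at P5, members were called no more often than all genes. P5 ECFC retinas had 1 member lower, Rrm2 (-1.19 ± 0.30, adjusted p = 0.0159), with 7.08% of all genes called and 2.79% lower, and P5 combination retinas had 3 lower, Cdk1 (-0.62 ± 0.15, adjusted p = 0.0138), Birc5 (-0.86 ± 0.22, adjusted p = 0.0164) and Rrm2 (-1.18 ± 0.30, adjusted p = 0.0173), with 7.83% called and 3.56% lower. Rrm2 read 7.74, 7.16 and 6.39 in P5 ECFC and 6.72, 7.32 and 7.28 in the P5 combination, all below 8.61, 8.37 and 7.88 in P5 CD34+. Birc5 read 5.38, 5.51 and 6.08 in the P5 combination, against 6.84, 6.35 and 6.35 in P5 CD34+. In these values every CD34+ retina lay above every retina of the other preparation. Over all members, arrays did not overlap in 8 lower and 2 higher for ECFC against CD34+, where 6.75% and 9.93% of all genes did so. For the combination against CD34+ these were 11 lower and 3 higher, against 9.99% and 10.2% of all genes. For ECFC against CD34+, Top2a (-0.78 ± 0.29, adjusted p = 0.112), Mki67 (-0.62 ± 0.27), Ccnd1 (-0.32 ± 0.17) and Spc25 (0.65 ± 0.34) did not pass. For the combination against CD34+, Ccnd1 (-0.48 ± 0.17, adjusted p = 0.0795), Mki67 (-0.68 ± 0.27), Top2a (-0.70 ± 0.29) and Spc25 (0.76 ± 0.34) did not pass. Both comparisons share the CD34+ retinas, and neither had a called member without P5 CD34+ replicate 1 (adjusted p 0.0886 for Rrm2 against ECFC, 0.0561 to 0.0947 for the 3 of the combination). ECFC against CD34+ had 0 without P5 ECFC replicate 3 (adjusted p 0.104) and 2 without P5 CD34+ replicate 2 or 3, and the combination against CD34+ had 6 without P5 CD34+ replicate 3 and 1 without P5 combination replicate 1 or 2. Median centring gave 1 higher beside the 3 lower for the combination against CD34+.

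Other cycle genes lower than in P5 CD34+ retinas were, after ECFC, Pbk (-0.86 ± 0.26), Ccnd2 (-0.83 ± 0.22), Cdca5 (-0.82 ± 0.23), the S phase kinase activator Dbf4 (-0.79 ± 0.24), Cdkn2c (-0.59 ± 0.17), Ccng1 (-0.53 ± 0.13) and Cdk2 (-0.42 ± 0.12), and after the combination Ccnd2 (-0.89 ± 0.22), Cdkn2c (-0.72 ± 0.17), the licensing factor Cdt1 (-0.57 ± 0.15), Cdk2 (-0.43 ± 0.12) and Ccng1 (-0.43 ± 0.13). Zwint (0.66 ± 0.13 and 0.58 ± 0.13) and Stmn1 (0.47 ± 0.11 and 0.41 ± 0.11) were higher after ECFC and after the combination. Pigment epithelium markers were lower than in P5 CD34+ retinas in 5 of 11 after ECFC and 6 of 11 after the combination, at 8.72 (7.90 to 9.48) and 8.68 (7.94 to 9.25), against 10.32 (10.16 to 10.50) in P5 CD34+. Lens markers averaged 9.27 (8.79 to 9.65) after ECFC and 9.95 (8.70 to 12.13) after the combination, against 11.77 (7.43 to 13.99) in P5 CD34+. The calls of Rrm2, Cdk1 and Birc5 held with the lens marker mean as a covariate, and the part of either tissue was not otherwise tested. At P12 the same comparisons called 0 of 40 members each (0% and 0% of all genes by limma, 5 and 0 members at an unadjusted p under 0.05). The smallest p-values were those of Rrm2 (-0.94 ± 0.30, adjusted p = 0.943), Birc5 (-0.64 ± 0.22, adjusted p = 0.943) and Tyms (0.38 ± 0.14, adjusted p = 0.943) for ECFC against CD34+, and of Cdc6 (-0.39 ± 0.20, adjusted p = 0.938), Mcm7 (-0.22 ± 0.12, adjusted p = 0.938) and Tyms (0.25 ± 0.14, adjusted p = 0.938) for the combination against CD34+. For ECFC against CD34+, Top2a gave -0.56 ± 0.29, Mki67 -0.33 ± 0.27, Ccnd1 -0.20 ± 0.17 and Spc25 0.42 ± 0.34. For the combination against CD34+, Rrm2 gave -0.42 ± 0.30, Top2a -0.16 ± 0.29, Mki67 -0.14 ± 0.27, Ccnd1 -0.20 ± 0.17 and Spc25 0.21 ± 0.34.

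The difference between the 2 injection days in the effect of cells was tested directly, as the effect against saline at P5 minus that at P12. No member passed for ECFC, CD34+ or the combination, with 0.0323%, 1.9% and 0% of all genes called and 10, 12 and 4 members at an unadjusted p under 0.05. With the hybridisation controls as a covariate 5, 4 and 1 members passed, and with array weights 9 for ECFC and 3 for CD34+. Shares of all genes are not given here for the unadjusted counts or for these settings. For CD34+ the smallest adjusted p-values were those of Top2a (1.38 ± 0.41, adjusted p = 0.0756), Cdk1 (0.72 ± 0.22, adjusted p = 0.0852) and Rrm2 (1.38 ± 0.43, adjusted p = 0.0906), the 3 genes that rose at P5. So, in the fit without these settings, the rise at P5 is not shown to differ from the effect at P12, and without P5 CD34+ replicate 2 the E-type cyclin Ccne1 was the 1 member that passed (adjusted p = 0.048). Mki67 (0.70 ± 0.38), Ccnd1 (0.56 ± 0.24) and Spc25 (-0.47 ± 0.49) did not pass. For ECFC, Top2a (1.17 ± 0.41, adjusted p = 0.321), Mcm6 (0.57 ± 0.20, adjusted p = 0.321) and Birc5 (0.83 ± 0.31, adjusted p = 0.324) had the smallest p-values, and Rrm2 gave 1.13 ± 0.43, Mki67 0.40 ± 0.38, Ccnd1 0.45 ± 0.24 and Spc25 -0.24 ± 0.49. For the combination, Mad2l1 (0.31 ± 0.13, adjusted p = 0.399), Pcna (0.33 ± 0.14, adjusted p = 0.41) and Mcm4 (0.65 ± 0.29, adjusted p = 0.415) had the smallest, and Rrm2 gave 0.62 ± 0.43, Top2a 0.84 ± 0.41, Mki67 0.15 ± 0.38, Ccnd1 0.27 ± 0.24 and Spc25 0.08 ± 0.49.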

How the data were processed

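The samples are whole retinas of 30 pups. Per the labels' protocols, RNA was purified on RNeasy columns, amplified and biotin-labelled for the arrays. The deposited values are log2 intensities of 22690 probe sets that the authors had already normalized. Partek is the tool in the submitters' processing notes, with its version and the normalization method not given in the sources used here. Controls made up 64 probe sets. Of the rest, 20380 carried a single gene symbol, 691 several and 1555 no symbol, and 29 single symbols had no RefSeq match. The brightest probe set stood for each of 12393 genes. Levels of different genes are not compared.

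The tests used limma (version 3.58.1, R 4.3.3) with a mean for each group, 30 arrays, 20 residual degrees of freedom and 19 comparisons, two-sided with moderated variances (eBayes). P-values were adjusted by Benjamini-Hochberg over 12393 genes within a comparison and called under 0.05. Errors of differences are SE from this fit. The members and gene lists were chosen with earlier results of these data known. Values are named for Rrm2, Top2a, Mki67, Ccnd1 and Spc25 everywhere, for up to 15 passing members per direction with the smallest p, for 3 members where none passed, for up to 5 passing genes per direction in each further cycle list, and for the 10 genes most like the members. Prc1 and Rrm1 array values, probe sets besides the first, and members lost with 1 array left out were named after their values were seen. The steps were tested on simulated data. Array identity (0 identical pairs) and pairing by replicate number were checked, and no pairing was used. Alternatives tried were median centring, quantile normalization, the mean of probe sets, all probe sets as features, a filter on dim genes, trend and robust eBayes, array weights, a replicate block, the compared groups alone, covariates for lens markers and 18 hybridisation control probe sets, and each array left out. Promoter windows were matched by symbol to RefSeq's table of the GRCm38.p6 build.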

Additional observations from a re-analysis of the deposited data

Results flagged for a closer look

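The effect of CD34+ cells against saline differed between injection at P5 and at P12, by the test of the difference itself, in 1 of 38 regulators and 1 of 50 other mitosis genes, where 1.9% of all genes were called, so the count says nothing particular to cycle genes. Ccnd2, a D-type cyclin of the G1 step, had an effect at P5 minus that at P12 of 1.41 ± 0.31 (adjusted p = 0.0288). At P5 it read 10.36, 10.03 and 9.96 in CD34+ retinas, against 8.95, 9.29 and 8.72 in saline retinas, and at P12 9.05, 8.69 and 9.33 in CD34+ retinas, against 9.01, 9.55 and 9.34 in saline retinas. Zwint, which links the kinetochore to the spindle checkpoint, had -0.74 ± 0.19 (adjusted p = 0.0466). At P5 it read 10.52, 11.17 and 10.70 in CD34+ retinas, against 11.41, 11.52 and 11.64 in saline retinas, and at P12 11.74, 11.76 and 11.69 in CD34+ retinas, against 11.75, 11.76 and 11.62 in saline retinas. Ccnd2 thus stood higher and Zwint lower after CD34+ cells at P5, relative to saline of that day, while none of the 40 members passed this test. In both genes the first CD34+ retina at P5 lay furthest from saline. Its array stands apart in its group in lens, microglia and macrophage, and hybridisation control readings. Results for these 2 genes without that array are not given here.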

How the results depend on the processing

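Precision rests on 3 retinas a group, and differences of members near background are not exact sizes. Counts of called members moved by over 1.5 times in the settings named first, and the cause was not tested except where fewer genes or arrays entered. The ranges over single arrays left out come after them, whatever their size. Those of OIR and P12 saline against normoxia and of P5 against P12 saline stayed within 1.5 times. Shares of all genes in these settings are not given here. Leaving out the dimmest 30% of genes, which removes members, gave 8 for OIR against normoxia, 7 for P5 saline against OIR, 16 for P12 saline against normoxia and 13 for P5 against P12 saline. Fitting the compared groups alone gave 6 for P5 saline against OIR, 1 for P5 saline against normoxia, and 0 for P5 CD34+ against saline and for P5 ECFC and the P5 combination against CD34+. The lens covariate gave 1 for P5 saline against OIR, 7 for P5 against P12 saline, 2 for P5 ECFC and 5 for the P5 combination against CD34+. The hybridisation control covariate gave 4 for P12 saline against OIR, 12 for P5 against P12 saline, 6 for P5 CD34+ against saline, and 5, 4 and 1 for the P5 minus P12 effects of ECFC, CD34+ and the combination. Array weights gave 14 for P12 saline against OIR, 18 for P12 ECFC against saline, 5 for P12 ECFC against CD34+, 6 for the P5 combination against CD34+, and 9 and 3 for the P5 minus P12 effects of ECFC and CD34+. The mean of all probe sets gave 4 for P12 saline against OIR. Leaving out single arrays gave 10 to 15 (OIR against normoxia), 3 to 7 (P12 saline against OIR), 6 to 11 (P5 saline against OIR), 20 to 26 (P12 saline against normoxia), 1 to 6 (P5 saline against normoxia), 17 to 21 (P5 against P12 saline), 0 to 5 (P5 CD34+ against saline), 0 to 2 and 0 to 6 (P5 ECFC and combination against CD34+) and 0 to 1 (P5 minus P12 effect of CD34+), with 0 throughout in the other comparisons. The trend and robust model, quantile normalization, centring on the median and the use of all probe sets kept every count of called members within 1.5 times.

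The replicate block, for which the labels give numbers but no shared litter or day, gave 15, 7, 12, 26, 5 and 22 in the first 6 of these comparisons and 3, 1 and 3 for P5 CD34+ against saline and P5 ECFC and combination against CD34+, so it moved no count by over 1.5 times. Residuals of arrays with the same number correlated from -0.45 to 0.45, and no comparison had every pair over 0.1.

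Of 304 results of single genes over 5224 settings, 4484 kept direction and call, 632 lost and 52 gained the call, and 56 turned direction, of which Rrm1, Usp1, Cdc7, Cdkn1c and Cdkn2d had passed in the comparisons named next and the others had not. With the mean of probe sets, Rrm1 turned to 0.22 (P12 saline against normoxia), Usp1 to -0.0155 (P5 saline against normoxia), Cdc7 to -0.0557 (P5 against P12 saline), Ccnd1 to 0.17 (P5 combination against saline) and Spc25 to 0.0817 (P12 saline against OIR) and -0.13 (P5 minus P12 effect of the combination). With the lens covariate, Ccnd1 turned to 0.17 and Cdkn1c to -0.0547 (P5 against P12 saline), Rrm2, Mki67 and Ccnd1 to -0.12, 0.0663 and -0.00133 (P5 ECFC against saline), and Rrm2 to -0.0669 (P5 combination against saline). With the hybridisation controls, Top2a and Mki67 turned to 0.30 and -0.13 (P12 saline against OIR), Cdkn2d to -0.0314 (P5 against P12 saline), Mcm7 to 0.00364 (P5 ECFC against saline), Ccnd1 to 0.11 (P5 combination against saline) and Mki67 to -0.0366 (P5 minus P12 effect of the combination). With array weights, Mki67 turned to 0.28 (P5 ECFC) and 0.094 (P5 combination), Rrm2 to -0.0831 (P5 combination), each against saline, and Spc25 to -0.19 (P5 minus P12 effect of the combination). Spc25 in P12 saline against OIR was 0.0482 under quantile normalization and 0.14 under median centring. Leaving out single arrays gave ranges that cross 0 for Rrm2 (-0.24 to 0.31) and Spc25 (-0.67 to 0.34) in P12 saline against OIR, Spc25 (-0.22 to 0.79) in P5 saline against OIR, Ccnd1 (-0.14 to 0.0147) in P5 against P12 saline, Rrm2 (-0.40 to 0.15), Mki67 (-0.19 to 0.0177), Ccnd1 (-0.31 to 0.0184) and Spc25 (-0.0717 to 0.30) in P12 CD34+ against saline, Rrm2 (-0.24 to 0.44), Mki67 (-0.24 to 0.39) and Ccnd1 (-0.00893 to 0.18) in P5 ECFC against saline, Rrm2 (-0.00861 to 0.29), Mki67 (-0.31 to 0.33) and Ccnd1 (-0.13 to 0.0197) in P5 combination against saline, Top2a (-0.42 to 0.00289) in P12 combination against CD34+, and Mki67 (-0.0761 to 0.57) and Spc25 (-0.12 to 0.26) in the P5 minus P12 effect of the combination.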
